A study of Mus musculus with 2 samples.

Results

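Chga, Chgb, Ghrl, Sst, Gast, Neurog3, Neurod1, Hdc, Tph1 and Pax6 are genes of the hormone-producing cells of the stomach lining. They were followed here as a fixed list of 10 genes, of which 9 were among the 19550 genes of the count table, and Neurog3 was not analysed here. Their transcripts were counted in 7808 single cells from the esophagus, the squamo-columnar junction between esophagus and stomach (GE-SCJ) and the stomach of wild type C57BL/6 mice. Tissue came from embryonic day 15 (E15), E19, pups at day 2 and adults at 8 weeks. Cells of several mice were pooled within each region and stage, marked with a lipid tag, and run together as a single gene expression library. No treatment, transgene or Cre line was used. The table held 11 of the 12 combinations of region and stage, since no adult stomach cells were analysed here.

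Each region and stage was therefore 1 sample without replicates, so no test between regions or stages was possible. Intervals given below are 95% intervals and cover counting error only. A unique molecular identifier (UMI) marks 1 captured RNA molecule, and CPM is the UMIs of a gene divided by the UMIs of all genes in the same cells, times 1000000. The deposited labels placed 1540 cells in the columnar epithelium, 419 in a neural class and 354 in an immune class, out of 9 classes. Tags held 143 to 1403 cells and 2302227 to 20070615 UMIs each. The median depth was 25118 UMIs per cell in columnar cells, 7900 in neural cells and 8266.5 in immune cells.

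Gastric endocrine cells lie singly among the other cells of the gland epithelium, and each type is known by the hormone or amine it releases. Gast encodes gastrin of G cells, Sst somatostatin of D cells and Ghrl ghrelin of X/A-like cells, while histamine is made by Hdc in enterochromaffin-like cells and serotonin synthesis starts with Tph1 in enterochromaffin cells. The chromogranins Chga and Chgb are packed with these products into dense-core granules. Neurog3, Neurod1 and Pax6 encode transcription factors that act in turn as epithelial progenitors become endocrine cells.

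Promoter sequence is shown for 3 members because Chga, Chgb and Sst share a motif close upstream of their RefSeq start sites. The motif is the cAMP response element, with the core TGACGT, and the longest match is in capitals. For Chga the 250 bases before the RefSeq start site (GRCm38.p6) are given, at chr12:102554691-102554940 on the plus strand. For Chgb and Sst 30 bases around the motif are given, since GENCODE places the start of these genes 364 and 114 bases farther upstream, so that by GENCODE these stretches lie inside the genes. They are at chr2:132781559-132781588 on the plus strand and chr16:23890874-23890903 on the minus strand, and each sequence reads 5′ to 3′ along its gene.
Chga: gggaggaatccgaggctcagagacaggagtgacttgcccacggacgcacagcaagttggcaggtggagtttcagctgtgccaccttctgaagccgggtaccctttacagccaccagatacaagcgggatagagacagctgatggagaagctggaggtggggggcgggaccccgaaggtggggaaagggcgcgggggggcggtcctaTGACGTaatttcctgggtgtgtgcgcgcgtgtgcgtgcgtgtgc
Chgb: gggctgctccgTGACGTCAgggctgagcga
Sst: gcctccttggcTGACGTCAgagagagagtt
The capitals begin 44 bases before the RefSeq start in Chga, 72 in Chgb and 48 in Sst. Both strands were searched for TGACGT, and 2125 of 32851 promoter windows of 250 bases held it (6.47%). The full palindrome TGACGTCA, which contains TGACGT, stood in 508 of them (1.55%). All 10 members had a promoter sequence, and TGACGT was found for 4 of them (Chga, Chgb, Pax6 and Sst) and TGACGTCA for 3 (Chgb, Pax6 and Sst). A match describes letters in a window and is no evidence of binding.

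The chromogranins were higher in columnar cells than in immune cells and came from a small number of columnar cells. Chga (chromosome 12, 102554969 to 102565028, plus strand, GENCODE coordinates on GRCm38 throughout) had 28.8 CPM in columnar cells (27.2 to 30.4) from 1244 UMIs. RNA free in the suspension enters droplets of every class, so immune cells served as the background and had 3.72 CPM (2.03 to 6.24). Whether immune cells express the chromogranins or hormones themselves was not tested, and they are no background for Hdc, described below. A UMI of Chga was found in 105 of 1540 columnar cells (6.82%, 5.61 to 8.19%) and in 14 of 354 immune cells (3.95%, 2.18 to 6.55%). After thinning each cell to 5000 UMIs the shares were 2.15% of columnar and 2.37% of immune cells. Columnar cells were deeper before thinning, so the thinned shares were not read as expression or as its absence. Of the 105 cells, 83 had a single UMI and 22 had 2 or more. Chgb (chromosome 2, 132781278 to 132795079, plus strand) had 13.3 CPM in columnar (12.2 to 14.4) and 1.06 in immune cells (0.290 to 2.72), with 42 columnar and 4 immune cells positive.

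The hormone genes were spread more widely in single UMIs. Ghrl (chromosome 6, 113716119 to 113719880, minus strand) was detected in 1062 columnar cells (69.0%) and in 200 immune cells (56.5%). At 5000 UMIs per cell it was found in 22.0% of columnar (19.9 to 24.2%), 37.8% of neural (32.6 to 43.2%) and 34.0% of immune cells (28.2 to 40.2%). The thinned share was lower in columnar cells, the deepest of these classes before thinning, than in immune cells, and was not read as expression. Free RNA itself was not measured. The level of Ghrl went the other way from its thinned share, with 958 CPM in columnar cells (949 to 968) and 86.6 in immune cells (77.5 to 96.5). Sst (chromosome 16, 23889573 to 23890958, minus strand) had 69.9 CPM in columnar cells and 18.3 in immune cells, with thinned shares of 4.91% (3.86 to 6.13%) and 8.30% (5.21 to 12.4%). Gast (chromosome 11, 100334407 to 100336996, plus strand) had 192 CPM in columnar cells and 4.25 in immune cells, and was positive in 112 columnar cells (7.27%) and 13 immune cells (3.67%).

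Among the 8 members with at least 20 UMIs over both classes, 7 were at least 2-fold higher in columnar than in immune cells and Hdc was at least 2-fold lower. Of 14987 genes tested the same way, 18.9% were as much higher and 21.1% as much lower. The log2 ratio of columnar to immune CPM, with 1 UMI added to each sum, was 5.41 for Gast, 3.46 for Ghrl, 3.33 for Chgb, 2.85 for Chga and 1.91 for Sst. Neurod1 and Pax6 had no UMI in the 354 immune cells. Measured against the level that 3 counts would give there, they were at least 3.28-fold and at least 2.53-fold higher in columnar cells. For Sst this difference rested on 1 cell with 2365 UMIs, and without the top cell of each group the log2 ratio was -0.14.

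Most of the UMIs lay in a few cells. A cell with at least 10 UMIs of Ghrl, Sst, Gast, Chga or Chgb is called hormone-rich here, and 33 of 7808 cells met that rule (0.423%), 19 of them columnar (1.23% of columnar cells, 0.744 to 1.92%). These 19 cells held 98.5% of the columnar UMIs of Gast, 95.5% of Chgb, 95.4% of Ghrl, 92.3% of Chga and 86.5% of Sst. Since the rule used these 5 genes, their shares are a description. The rule counts UMIs and not CPM, so a deeper cell could meet it at a lower share of its UMIs. Columnar cells had a median depth of 25118 UMIs, against 8266.5 in immune cells. A columnar cell of 38607 UMIs passed with 11 Ghrl UMIs, 0.0285% of the cell. The part of depth in the number of hormone-rich cells per class was not tested. The name covers cells that passed through a chromogranin alone, since 8 of the 33 cells, 5 of them columnar, had at most 7 UMIs of Ghrl, Sst or Gast, with 11 to 176 of Chga. Cells outside the rule had at most 9 UMIs of Ghrl, 9 of Sst, 4 of Chga, 6 of Chgb and 7 of Gast. The lowest counts that met the minimum of 10 were 11, 10, 11, 11 and 31 in the same order. When cells that met the rule through another gene were counted too, the highest count under 10 was 8 for both Chga and Chgb. The gap was thus widest for Gast and narrow for the other genes. Of the 33 cells, 5 had at most 15 UMIs of their leading gene while 19 had more than 100.

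**Figure D1:**
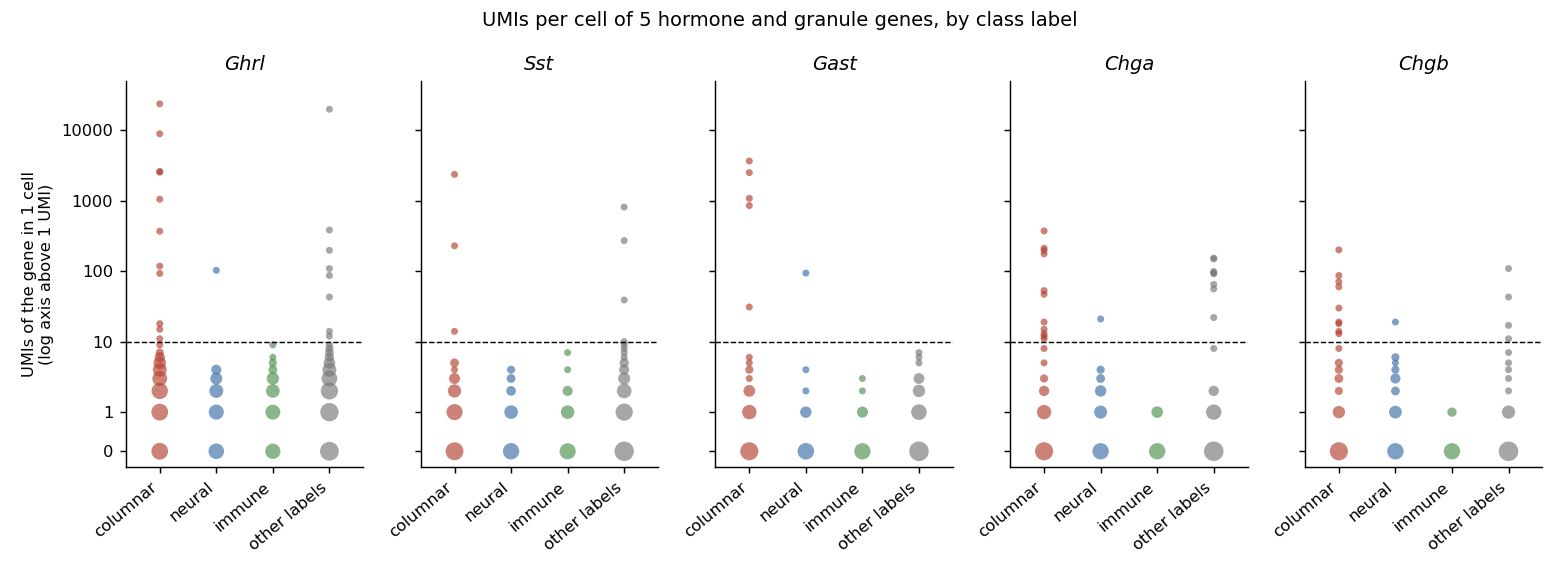
UMIs of each hormone or granule gene per cell (log axis above 1 UMI) by class label, where a larger point stands for more cells and the dashed line marks 10 UMIs. Most positive cells had few UMIs, and a sparse tail above the line reached 23742 for Ghrl and 3667 for Gast in columnar cells.

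Outside the hormone-rich cells, the CPM of Ghrl was not higher in columnar cells than in the other classes. It was 45.1 CPM (43.1 to 47.1), while the other 8 classes lay between 55.8 and 91.2 CPM, and the intervals of the classes with 40 and 139 cells included the columnar level. Counted per cell the order differed, with 1925 Ghrl UMIs in 1521 deeper columnar cells (68.6% positive) and 326 in 354 immune cells (56.5%). Sst was 9.56 CPM in the remaining columnar cells (8.65 to 10.5) and 18.3 in immune cells (14.3 to 23.2). The remaining Chga level of 2.25 CPM (1.82 to 2.75) lay within the immune interval. Since the rule took out the cells with the most UMIs of these genes, the levels left are a description. By tag, with all classes together and hormone-rich cells left out, Ghrl ranged from 52.4 to 112 CPM.

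The 19 columnar hormone-rich cells were led by different genes. Ghrl led in 9 of them, with 11 to 23742 UMIs and a median of 1050. Gast led in 4, with 854 to 3667 UMIs, Chga in 4 with 12 to 176, Chgb in 1 with 71 and Sst in 1 with 2365. The strongest cell, from the esophagus at E19, had 23742 Ghrl UMIs, which was 58.4% of the 40678 UMIs of the cell, together with 373 UMIs of Chga and 201 of Chgb. A second Ghrl cell, from the GE-SCJ at E19, had 8914 Ghrl UMIs with 212 of Chga and 60 of Chgb. The strongest Ghrl cell of the stomach had 2543 UMIs at E15, 2606 at E19 and 1050 in pups. In 7 columnar cells with at least 100 Ghrl UMIs, Mboat4, the enzyme that acylates ghrelin, was found in 7.

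The 4 Gast-led cells were 2 from the pup GE-SCJ (3667 and 2508 UMIs), 1 from the E15 stomach (854) and 1 from the E19 stomach (1082). All 4 also had UMIs of Pax6 and of Neurod1 and none had Hdc. The Sst-led cell from the E19 stomach carried 1903 UMIs of Pyy, the gene of peptide YY, and 113 of Iapp, the gene of amylin. Another hormone led in 1 cell that met the rule with 12 Chga UMIs, a GE-SCJ cell of E19 with 915 UMIs of Gcg, the proglucagon gene. A pup GE-SCJ cell combined 369 Ghrl, 229 Sst, 197 Chga and 40 Hdc UMIs at a depth of 8949 UMIs.

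**Figure D2:**
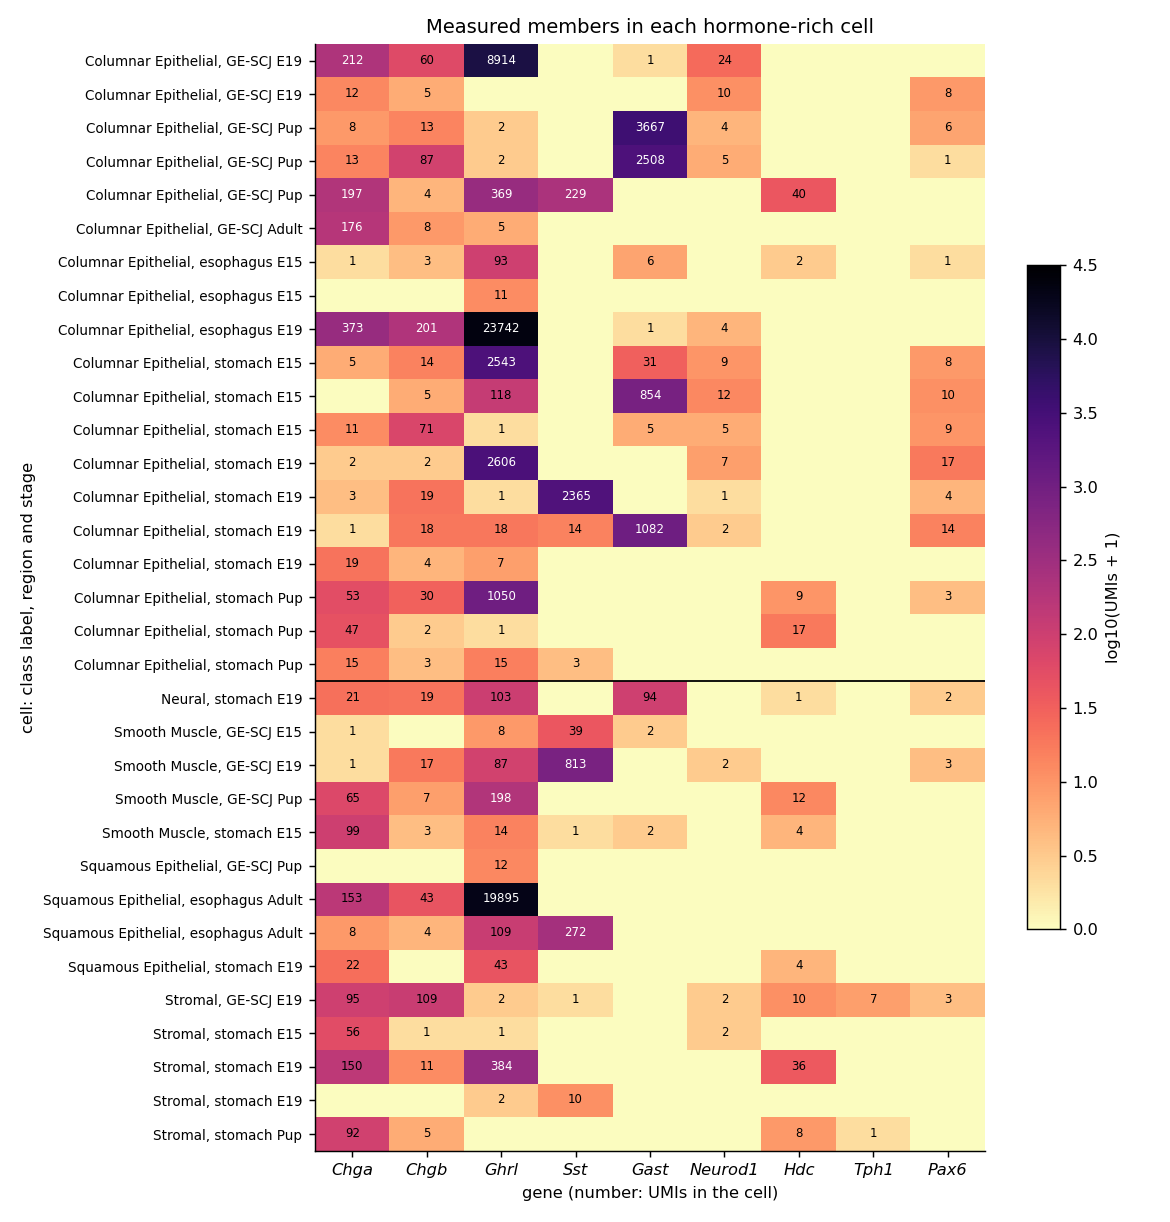
UMIs of each measured member in each of the 33 hormone-rich cells, grouped by deposited class, region and stage, with the count printed in each field and color on a log10 scale. Ghrl and Chga reach 10 UMIs in 20 cells each, Chgb in 14, Sst in 7 and Gast in 6.

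Across all 33 cells, at least 2 of the 5 genes reached 10 UMIs in 21 cells. Chga and Ghrl did so together in 11 cells, which is 11 of the 20 Chga cells and 11 of the 20 Ghrl cells. Chga and Chgb met in 9 cells, as did Chgb and Ghrl. Sst and Ghrl met in 4 cells, Gast and Ghrl in 4 and Gast and Sst in 1. Whether a barcode held more than 1 cell was not tested, and no doublet caller was run.

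The columnar hormone-rich cells were checked against marker lists. Epcam, Krt8 and Krt18, genes of simple epithelium, were detected in 19 of 19, Cdh1 in 17 and Krt19 in 9. Of 5 immune markers, Ptprc, Tyrobp, Fcer1g and Cd52 were at 0 and Lyz2 was seen in 3 cells, with a summed level of 0 to 67.4 CPM per cell. Of the 5 mast cell markers measured, Cpa3, Mcpt4, Cma1 and Tpsb2 were at 0 and Kit was found in 15 cells (0 to 311 CPM). Of 6 neuronal markers, Elavl3 was at 0 and Elavl4 was found in 9 cells, with the list at 0 to 759 CPM and a median of 79.9, against a median of 0 in the other columnar cells, and all 4 glial markers were at 0. The 8 columnar markers had a median of 2627.5 CPM in these cells and 5760 in the other columnar cells, and the part of either difference in the results was not tested. Fibroblast markers had 75.9 to 9843 CPM in these cells with a median of 140, close to the median of 141 in the other columnar cells. Of 3 measured markers of pancreatic cells, Ptf1a was at 0 and the list had 0 to 202 CPM.

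The other 14 hormone-rich cells carried non-columnar labels, with 5 stromal, 4 smooth muscle, 4 squamous and 1 neural. Epcam was detected in 10 of the 14 and Col1a1, a fibroblast collagen, in 14. Most of the columnar hormone-rich cells also had a Col1a1 UMI, so its detection did not set the 14 cells apart. A squamous-labelled cell of the adult esophagus had 19895 Ghrl UMIs, 49.2% of the 40432 UMIs of the cell, with 153 UMIs of Chga, 25 of Krt5 and 13 of Krt8. A smooth muscle-labelled cell of the E19 GE-SCJ had 813 Sst, 442 Pyy and 176 Acta2 UMIs. The neural-labelled cell, from the E19 stomach, had 103 Ghrl, 94 Gast and 127 Col1a1 UMIs. Their fibroblast markers reached a median of 1919 CPM, against 140 in the columnar hormone-rich cells, and the part of other cells in these barcodes was not tested.

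By region and stage, the columnar hormone-rich cells numbered 2 of 9 cells in the E15 esophagus, 1 of 20 in the E19 esophagus, and 0 of 53, 2 of 274, 3 of 291 and 1 of 19 in the GE-SCJ from E15 to adult. The stomach had 3 of 140 at E15, 4 of 366 at E19 and 3 of 351 in pups. Summed over regions this was 2.48% of columnar cells at E15 (0.808 to 5.68%), 1.06% at E19 (0.427 to 2.17%), and 0.920% in pups (0.338 to 1.99%), with 1 of 26 cells in adults. These intervals cover the sampling of cells within 1 pooled sample per stage and overlapped for all stages, and stages could not be compared without replicates. The 2 cells of the E15 esophagus, counted in the E15 share, had 93 and 11 Ghrl UMIs beside 27 and 143 Col1a1 UMIs. Whether their barcodes also held other cells was not tested.

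**Figure D3:**
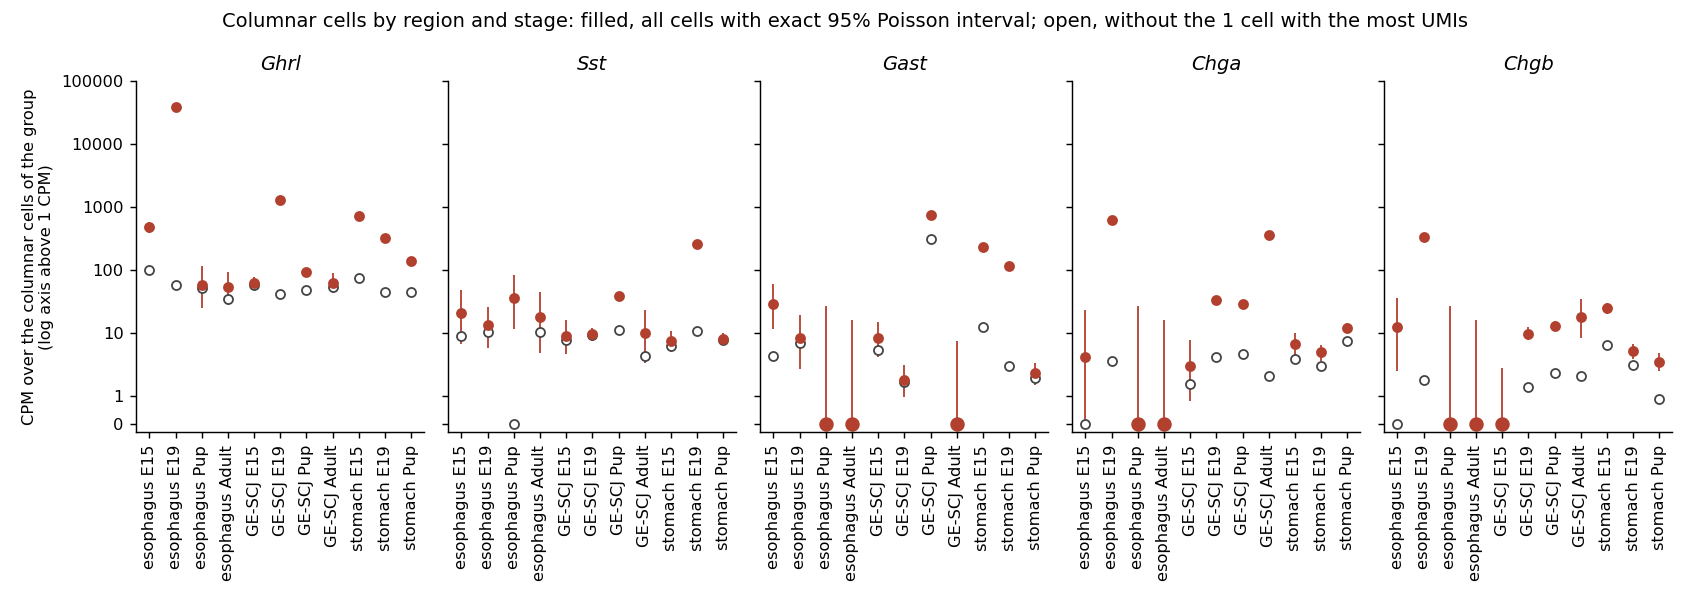
CPM of the hormone and granule genes in columnar cells by region and stage (log axis above 1 CPM). Filled points are all cells with exact 95% Poisson intervals and open points leave out the top cell of the group. Ghrl in the E19 esophagus drops from 39290 to 58.5 CPM without 1 cell.

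Levels by region and stage followed these single cells. In the stomach Ghrl had 732 CPM at E15 (705 to 759), 318 at E19 (307 to 330) and 137 in pups (130 to 144), but 73.8, 45.4 and 44.8 CPM without the top cell of each group. Stomach Gast had 233 CPM at E15 and 116 at E19 but 2.28 in pups, and 12.2, 2.94 and 1.93 without the top cell. Sst in the stomach had 7.51, 259 and 8.06 CPM, and the E19 level was 10.9 without the cell of 2365 UMIs. The lower stomach level of Ghrl in the pup than at E19 was therefore carried by 1 cell per stage.

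In the GE-SCJ, Gast had 1.81 CPM at E19 (0.966 to 3.10) and 758 in the pup (739 to 777), where 2 cells with 3667 and 2508 of its 6208 UMIs set the level. Without the top cell the pup level was 313 CPM. Ghrl there had 61.9 CPM at E15, 1285 at E19 and 93.4 in pups, against 58.6, 41.2 and 48.4 without the top cells. Chga had 3.02 CPM at E15 and 33.8 at E19, followed by 28.7 in pups and 357 in adults. Without the top cell these were 1.54, 4.21, 4.64 and 2.08 CPM, so the adult level rested on 1 of 19 cells. Chgb had no UMI at E15 in 53 cells, which allows up to 2.27 CPM at 3 counts, and 9.77 and 12.9 CPM at E19 and in the pup. A single cell held 60 of the 70 Chgb UMIs at E19, and another held 87 of the 106 in the pup. The higher Chgb levels after E15 thus rested on 1 cell per stage.

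Counted over the members with at least 20 UMIs, the stomach had 1 of 7 at least 2-fold higher and 5 lower at E19 than at E15, where 4.42% of all genes were higher and 6.03% lower. From E19 to pup in the stomach 2 of 7 were higher and 4 lower, beside 6.75% and 12.9% of genes. Pup against E15 in the stomach gave 1 of 8 higher and 5 lower, beside 9.75% and 23.4%. These 3 comparisons share samples.

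In the GE-SCJ 4 of 6 members were higher and 1 lower at E19 than at E15 (3.04% and 8.39% of genes), 3 of 7 higher and 2 lower in the pup than at E19 (7.62% and 12.5%), and 5 of 6 higher in the pup than at E15, with 0 lower (9.39% and 25% of genes). Stomach over GE-SCJ gave 5 of 7 higher at E15 (2.17%) and 0 lower (3.31%), 3 higher and 3 lower of 7 at E19 (2.27% and 1.71%), and 0 higher and 5 lower of 6 in the pup (1.36% and 2.51%). Over these 9 comparisons 49 of 61 member ratios passed 2-fold, 24 upward and 25 downward. Without the top cell of each group 20 did. The share of members past 2-fold was above that of all genes in most of these comparisons, on sums that 1 cell could set.

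The transcription factors were found in few cells outside the hormone-rich ones. Neurod1 (chromosome 2, 79452521 to 79456751, minus strand) had 113 UMIs in 17 columnar cells, 11 of them hormone-rich, which held 73.5% of the UMIs. Pax6 (chromosome 2, 105668900 to 105697364, plus strand) had 87 UMIs in 13 columnar cells, 11 of them hormone-rich, with 93.1% of the UMIs. Both genes were found together in 10 columnar cells, 9 of them hormone-rich. Neither gene chose these cells. In the stomach, Neurod1 had 6.99 CPM at E15 (4.61 to 10.2), 1.15 at E19 (0.575 to 2.06) and no UMI in 351 pup cells, which allows up to 0.263 CPM at 3 counts. The E15 level, from 4 cells, was at least 26.6-fold higher than that limit. The order differed in the GE-SCJ, where Neurod1 had no UMI at E15, 8.65 CPM at E19 and 1.10 in pups. There 1 cell held 24 of the 62 UMIs of E19.

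Pax6 stood in the same order in the stomach, with 8.29 CPM at E15 (5.67 to 11.7), 3.67 at E19 (2.55 to 5.10) and 0.350 in pups (0.0954 to 0.897). These levels came from 4 cells at E15, 3 at E19 and 2 in pups. In the GE-SCJ Pax6 had no UMI at E15, 1.12 CPM at E19 from 8 UMIs and 0.854 in pups from 7 UMIs. The level of 3 counts at E15 there was 2.27 CPM, above both. Of 5 columnar cells with Neurod1 but without Chga or Chgb, 3 had a single Neurod1 UMI and 4 came from the GE-SCJ at E19. Of the pair with more than 1 UMI, both from the GE-SCJ at E19, the first had 16 Neurod1 UMIs with 12 of Insm1 and 4 of Nkx2-2, and the second had 10 Neurod1 UMIs with 32 of Insm1, 11 of Nkx2-2 and 106 of Sox4. Insm1 and Nkx2-2 encode further transcription factors of endocrine differentiation.

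The hormone-rich cells with and without Pax6 differed in other genes. This split was made after the values had been seen and is a description. Of the 33 cells, 14 had a Pax6 UMI (median depth 18126.5 UMIs, 11 of them columnar) and 19 did not (14843 UMIs, 8 columnar). Pcsk2, a prohormone convertase, was found in 12 of the 14 with 317 UMIs (85.7%, 57.2 to 98.2%) and in 1 of the 19 with 1 UMI (5.26%, 0.133 to 26.0%). Pyy was found in 13 of 14 with 3680 UMIs and in 6 of 19 with 35. Gast had 8247 UMIs in the cells with Pax6 and 6 in those without. Slc18a2, the vesicular monoamine transporter, had 13 UMIs in 5 of 14 and 160 UMIs in 12 of 19, and Chga had 226 and 1685 UMIs.

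Hdc, unlike the other members tested, was lower in columnar than in immune cells. Hdc (chromosome 2, 126593667 to 126619299, minus strand), the histidine decarboxylase that makes histamine, had 2.29 CPM in columnar cells (1.86 to 2.79) and 62.7 in immune cells (55.0 to 71.2), a log2 ratio of -4.77. In immune cells 6 cells with at least 2 UMIs of Cpa3, a mast cell protease gene, held 180 of 236 Hdc UMIs (76.3%), and the highest had 100 Hdc, 80 Cpa3 and 243 Cma1 UMIs. Those 6 cells also held 6 of 6 immune UMIs of Tph1 (chromosome 7, 46644641 to 46672537, minus strand), the tryptophan hydroxylase of serotonin synthesis. Tph1 had 2 UMIs in 1540 columnar cells, below the level of 3 counts. Its highest count in any cell was 7, in a stromal-labelled GE-SCJ cell of E19 that also had 109 UMIs of Chgb, 95 of Chga and 10 of Hdc.

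In columnar cells 24 cells had Hdc, and hormone-rich cells held 68.7% of its 99 UMIs. The highest had 40, in the pup GE-SCJ cell with 197 Chga UMIs described above, and a stomach pup cell had 17 with 47 of Chga. By stage columnar Hdc had 0.552 CPM at E15 (0.114 to 1.61), 1.04 at E19 (0.616 to 1.64) and 3.95 in pups (3.12 to 4.93). Without the top cell of each stage the levels were 0.185, 0.405 and 1.92 CPM. Of the 78 pup UMIs, 66 came from 3 hormone-rich cells and 12 from 11 others. Without the hormone-rich cells Hdc had 1.05 CPM at E19 (0.622 to 1.66) and 0.615 in pups (0.318 to 1.07), with overlapping intervals. E15 had 0.188 CPM from 1 UMI. The higher pup level thus rested on 3 cells. The E19 level rested largely on 1 GE-SCJ cell with 11 Hdc UMIs that was not hormone-rich. That cell was the top cell of E19, which had 0.405 CPM without it. Among all 33 hormone-rich cells, 11 had Hdc and 22 did not. Slc18a2, which loads histamine into vesicles, was found in 10 of the 11 and in 7 of the 22, Chga in 11 and 18, and Neurod1 in 1 and 13.

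Neural cells had Chga near and Chgb above the columnar level, and the columnar level lay mostly in the hormone-rich cells. Chga had 26.2 CPM in neural cells (21.2 to 31.9) against 28.8 in columnar cells, and Chgb 25.6 (20.8 to 31.3) against 13.3. Without the hormone-rich cells of both classes, each gene had 20.7 CPM in neural cells (16.3 to 25.9), against 2.25 for Chga (1.82 to 2.75) and 0.609 for Chgb (0.398 to 0.892) in columnar cells. The rule that picked the hormone-rich cells used both genes. It took out 92.3% of columnar Chga UMIs and 95.5% of Chgb UMIs, but 1 neural cell with 21 and 19 UMIs. This difference is therefore set in part by the rule and is a description. Over both classes 4 of 8 members were at least 2-fold higher in columnar cells, beside 15.2% of 15046 genes, and 0 were lower, beside 31.2%. A UMI of Chga was found in 53 of 419 neural cells (12.6%), and thinning left 8.04% (5.36 to 11.5%), above the 2.37% of immune cells (0.875 to 5.09%). The highest neural Chga count outside the hormone-rich cell was 4 UMIs.

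Within the neural class, the chromogranins followed Elavl4, which encodes an RNA-binding protein of neurons. Without the hormone-rich cell, Chga was found in 43 of 132 neural cells with Elavl4 (32.6%, 24.7 to 41.3%) and in 9 of 286 without it (3.15%, 1.45 to 5.89%). Chgb was found in 39 (29.5%, 21.9 to 38.1%) and 3 (1.05%, 0.217 to 3.03%). Depth differed as well, with medians of 10604.5 and 6835 UMIs. The shares of the hormones overlapped in their intervals, with Ghrl found in 56.8% and 51.7%, Sst in 15.2% and 14.0% and Gast in 3.03% and 3.85%. By stage, Chga was found in 37 of 202 neural cells at E15 (18.3%), 14 of 145 at E19 (9.66%), 1 of 59 in pups (1.69%) and 1 of 13 in adults. Median depth was lower along the same order, with 9896, 7410, 4331 and 1796 UMIs, and its part was not tested.

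**Figure D4:**
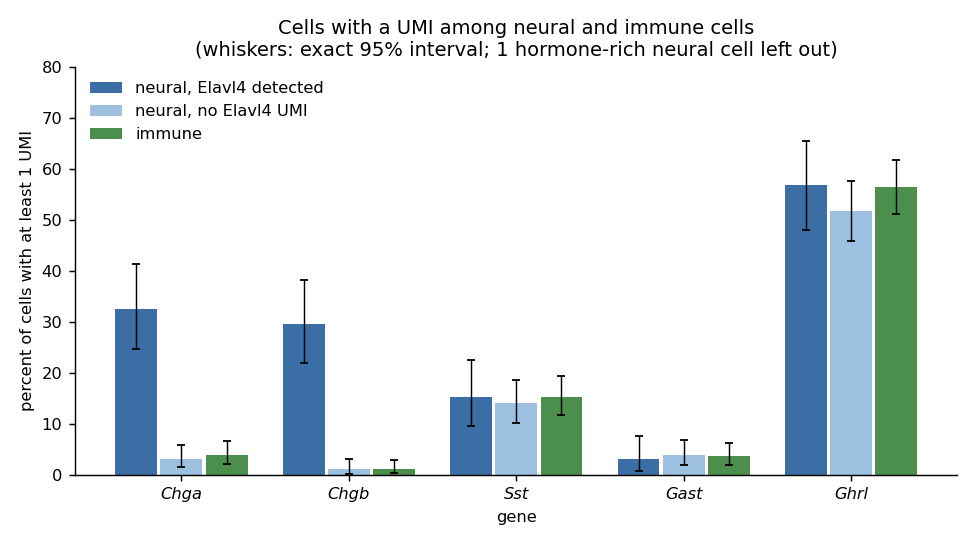
Share of neural and immune cells with at least 1 UMI of each hormone or granule gene (percent), in cells with and without Elavl4 and in immune cells, with exact 95% intervals. Chga and Chgb reach 32.6% and 29.5% with Elavl4 and 3.15% and 1.05% without it, while the intervals of Ghrl, Sst and Gast overlap.

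The granule genes and factors were often found in the same cells. Among columnar cells Chgb was found in 18.1% of the 105 Chga-positive cells (11.3 to 26.8%) and in 1.60% of the others (1.02 to 2.40%). Neurod1 was found in 28.6% of the 42 Chgb-positive cells (15.7 to 44.6%) and in 0.334% of the others, and Pax6 in 28.6% and 0.0668%. With Chga the factors stood at 10.5% each, against 0.418% for Neurod1 and 0.139% for Pax6 without it. The hormones were not alike in this. Ghrl was found in 72.4% of cells with Chga (62.8 to 80.7%) and 68.7% without it (66.2 to 71.1%), but in 88.1% with Chgb (74.4 to 96.0%) and 68.4% without it (66.0 to 70.8%). Gast was found in 10.5% with Chga and 7.04% without it, with overlapping intervals, but in 21.4% with Chgb (10.3 to 36.8%) and 6.88% without it (5.65 to 8.28%). For Sst the intervals overlapped in both cases, at 23.8% and 21.9% for Chga and 14.3% and 22.2% for Chgb. Ghrl was detected at 1 UMI or more in most columnar cells, and all cells came from 1 library, so these shares are a description.

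At least 3 of the measured members were found in 67 columnar cells (4.35%, 3.39 to 5.49%), 26 neural cells (6.21%) and 6 immune cells (1.69%). Of the 67, 18 were hormone-rich. The remaining 49 were mostly combinations of the widespread hormones, with Ghrl, Sst and Gast in 26 and Chga, Ghrl and Sst in 12. At least 5 members were found in 14 columnar cells, 1 neural cell and 0 of 354 immune cells, which allows a share of up to 0.847%. Median depth was 25118 UMIs in columnar, 7900 in neural and 8266.5 in immune cells. The part of depth in these differences between classes was not tested.

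The rest of the endocrine programme was read from a list of 56 genes, of which 53 were measured. To keep the hormone-rich cells from choosing the genes, they were counted among the 28 with at least 20 UMIs in the other 1521 columnar cells alone, a filter chosen after the values had been seen. Of these, 19 were at least 2-fold higher in the 19 columnar hormone-rich cells and Hes1 was lower, beside 24.6% and 4.71% of 14274 genes, and the median log2 ratio was 3.02, against 0.30 over all genes. The 1 UMI added to each sum weighs more in the hormone-rich cells, which hold fewer UMIs, and raises the ratios of sparse genes. Nmb, a hormone gene of the list, had 1.90 CPM there and 2.41 in the other columnar cells, but a log2 ratio of 0.64. The part of this in the shares and medians was not tested. With 20 UMIs over both sets of cells, 43 genes passed, of which 34 were higher and 1 lower (25.2% and 4.67% of 14380 genes). Since 15 of these passed only through the hormone-rich cells, where they had to be high, that count is no support.

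In the 67 cells with at least 3 members the same filter on the other cells left 26 genes. Of these 16 were higher and 1 lower, beside 6.98% and 2.31% of genes, with a median of 1.33 against 0.062. Since 18 of the 67 cells were hormone-rich, this comparison is not separate from the one above. The other several-member cells were not compared alone. The lower gene there was Mnx1 at -1.12, while Hes1 was at -0.61. Over both sets of cells 33 of 43 were higher (8% of genes), 17 of the 43 having passed only through the cells with at least 3 members.

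By group, the granule and processing genes were higher for 5 of the 5 that passed in the other cells, and 9 more passed only through the hormone-rich cells. The 5 were Rab3c at 7.43, Cpe at 6.90, Cplx2 at 5.95, Pam at 4.12 and Syt7 at 2.73. All 5 of the genes named next are among those 9. In hormone-rich over other columnar cells, the log2 ratio was 11.33 for Pcsk2 (10.19 to 12.80), 9.24 for Pcsk1n, which encodes a convertase inhibitor, 10.01 for Scg3 and 9.82 for Scg2, both granins, and 9.36 for the convertase Pcsk1. Of the transcription factors 6 of 8 that passed in the other cells were higher. The values were 7.22 for St18, 6.53 for Etv1, 6.49 for Nkx2-2, 5.55 for Insm1 and 4.90 for Rfx6. Of these, Nkx2-2 and Rfx6 passed only through the hormone-rich cells. Of the other hormones 2 of 3 were higher, Pyy at 11.30 and Gcg at 11.12, while Cck at 9.59 and Iapp at 11.59 passed only through the hormone-rich cells. For each of these genes 1 cell held most of the UMIs, with 1903 of 3229 for Pyy, 915 of 1014 for Gcg, 27 of 37 for Cck and 113 of 113 for Iapp. Pyy was found in 14 of the 19 cells, Cck in 5, Gcg in 3 and Iapp in 1. Gip, the gene of a glucose-dependent insulinotropic peptide, had 21 UMIs in the hormone-rich cells, 18 of them in 1 cell, and none in the others, at least 568-fold higher at 3 counts.

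The amine genes were higher for 3 of 3, led by Slc18a2 at 8.02, and Mboat4 was at 6.95. Of 3 receptors 1 was higher, the somatostatin receptor Sstr2 at 2.72 (1.23 to 3.91), from 5 UMIs in 4 of the 19 cells. Of 5 Notch pathway genes Dll1, a Notch ligand, was higher at 3.49 (1.79 to 4.85), from 4 UMIs in 3 cells. Hes1, a repressor induced by Notch, was lower at -1.69 (-1.99 to -1.40).

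**Figure D5:**
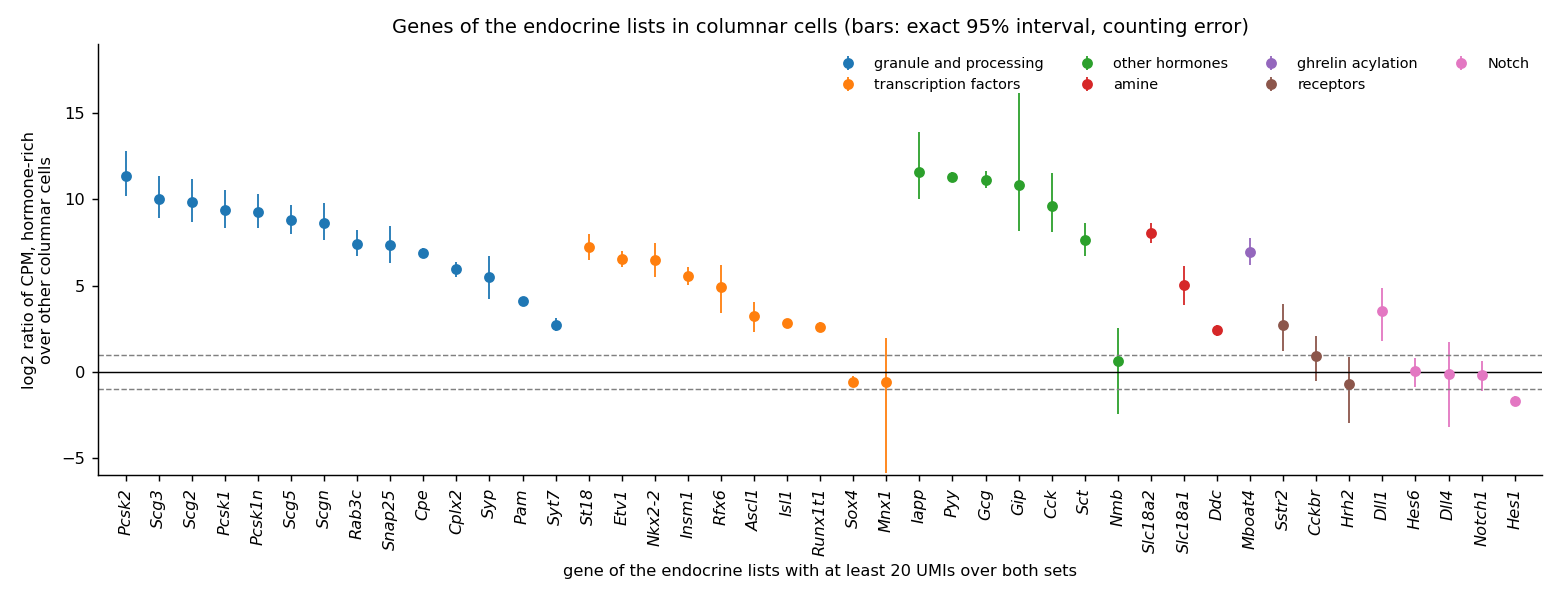
Log2 ratio of CPM in the 19 columnar hormone-rich cells over the other 1521 columnar cells for the listed genes, by group, with exact counting intervals. Dashed lines mark 2-fold. The granule genes lie above it, up to 11.33 for Pcsk2, and Hes1 lies lowest at -1.69. Of the granule genes 9, Pcsk2 among them, reached 20 UMIs only through the hormone-rich cells, where they had to be high.

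Genes that followed the chromogranins over cells were ranked by Pearson's r to the summed log-normalized level of Chga and Chgb over 1540 columnar cells. The 15 highest of 12724 genes were Slc18a2 (r = 0.75), Ptprn (0.74), Tm4sf4 (0.74), Scg5 (0.72), Pnmal2 (0.71), Cplx2 (0.69), Pcsk1n (0.67), Scg3 (0.67), Sez6l2 (0.66), Rab3c (0.66), Cpe (0.65), Fam183b (0.64), Pcsk1 (0.64), Hap1 (0.63) and Cd200 (0.61). The median r over all genes was -0.0013. Of the other members Ghrl had 0.57, Pax6 0.50, Neurod1 0.46, Hdc 0.43, Gast 0.31 and Sst 0.26. Cells of 1 library share its preparation and sequencing, and the r values rest largely on the few hormone-rich cells, so they are a description without a test.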

How the data were processed

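Cells were tagged by region and stage, pooled and sequenced as 1 library with 10x Genomics 3′ v3.1 CellPlex chemistry. Per the submitters' processing notes the authors used Cell Ranger 6.1.1 on mm10. They deposited raw UMI counts per gene and cell after their own cell filters, with a class label, region and stage for each cell, and the percent of mitochondrial UMIs, a deposited percent per cell that was used only in an alternative filter. Both deposited lists gave the same tag for 7808 of 7808 cells, and 7808 barcodes were unique.

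The study's design text gives 6 mice at E15, 2 at E19, 2 pups and 3 adults, pooled within a tag. The methods give other numbers. UMIs were summed per class, region and stage, with exact Poisson and Clopper-Pearson intervals, at each cell's depth and after thinning to 5000 UMIs, which left out 1135 shallower cells. Ratios added 1 UMI to each sum, with exact conditional intervals, and a call needed a 2-fold difference and 20 UMIs over both groups. For the pathway list the 20 UMIs were also required in the other columnar cells alone. A floor of 3 counts stood for 0. Intervals and floors cover counting error only. No doublet caller was run.

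The genes named were all members, up to 5 genes of each pathway group by the size of their log2 ratio between columnar cells with and without at least 3 members, and the 15 genes most like Chga plus Chgb among those with at least 50 UMIs in columnar cells. Others were named after their values were seen, among them the splits by Pax6, Hdc and Elavl4. Members and lists were chosen with earlier results of these data known. Of the pathway list Pax4, Ghsr and Sstr5, and of the marker lists Fcer1a, Ms4a2, Ins1 and Ins2, were not analysed here, and 1 gene of the pathway list and 1 of the marker lists are not reported here. Promoters came from RefSeq. The code was tested on simulated data. Computations used numpy 2.4.6 with pandas 2.3.3, intervals scipy 1.17.1 and figures matplotlib 3.10.9, under Python 3.11.15.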

Additional observations from a re-analysis of the deposited data

Results flagged for a closer look

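Outside the columnar, neural and immune cells compared above, 13 cells with squamous, smooth muscle or stromal labels were hormone-rich. By the same rule in UMIs, which depends on depth, 0 of 354 immune cells were. The 13 cells were noted because their counts lay above those of immune cells, where the highest were 9 UMIs of Ghrl, 7 of Sst and 1 of Chga. The highest Ghrl count in 1 such cell was 19895 UMIs, in a squamous-labelled cell of the adult esophagus, and that cell also had the highest Chga count of a squamous-labelled, smooth muscle-labelled or stromal-labelled cell, 153 UMIs. The highest Sst count was 813 UMIs, in a smooth muscle-labelled cell of the E19 GE-SCJ with 442 UMIs of Pyy and 87 of Ghrl.

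A squamous-labelled cell of the pup stomach had 18 UMIs of Hdc and 3 of Tph1 beside 97 of Cpa3 and 173 of Cma1, which are mast cell genes. What the labels of these cells rest on was not tested.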

How the results depend on the processing

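No paired analysis was possible because each region and stage was 1 pooled sample in a single library, without replicates. The number of members at least 2-fold higher in columnar than in immune cells was 7 and stayed between 6 and 7 with the mean of cell CPM, a stricter cell filter, another library size or the top cell left out. It was 1 when hormone-rich cells were left out of every class, an alternative chosen after seeing the data. It was 2 when columnar cells with at least 2 UMIs of other classes' markers were left out, which removed 1224 of 1540 columnar cells, 17 of the 19 hormone-rich ones among them.

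Of the stage and region ratios past 2-fold, 49 became 20 without the top cell of each group, and 48 or 49 with the other settings. In 7 comparisons the direction turned without the top cell. The log2 ratio of Ghrl went from 4.36 to -0.52 for GE-SCJ E19 over E15, from -3.78 to 0.23 for GE-SCJ pup over E19 and from -2.01 to 0.14 for stomach over GE-SCJ at E19. In the pup, stomach over GE-SCJ went from -1.25 to 0.64 for Chga and from -1.06 to 0.43 for Hdc. Sst went from 1.91 to -0.14 over immune and from 1.75 to -0.39 over neural cells.

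Chga-positive columnar cells numbered 105, but 22 at 2 UMIs or more and 32 after thinning. Cells with at least 3 members numbered 67, with 396 at 2 members or more, 20 at 4 or more, 15 after thinning, 20 without Ghrl and 16 without Ghrl, Sst and Gast, the last chosen after seeing the data. Columnar hormone-rich cells numbered 19, and 54 at a minimum of 5 UMIs, 15 at 20 and 18 with the stricter filter. Columnar cells with both Chga and Chgb numbered 19, with 16 at 2 UMIs and 12 after thinning. Depth limits shares from single UMIs, and the number of hormone-rich cells limits every level by region and stage. The pathway genes higher in hormone-rich and in several-member columnar cells, sets that shared 18 cells, numbered 34 and 33. They numbered 19 and 16 when the 20 UMIs were required in the other columnar cells alone. That setting was chosen after seeing the data and tests fewer genes.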

Other observations

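A GE-SCJ columnar cell of E19 had 11 UMIs of Hdc without 10 UMIs of any hormone or granule gene. The adult squamous-labelled cell and the E19 columnar cell with the most Ghrl both carried an esophagus tag. Ghrl was 49.2% and 58.4% of their UMIs. Whether the tag or the dissection placed cells of another region there was not tested. Of the pathway list, Isl1, Runx1t1 and Ddc were also common outside the hormone-rich cells, with a UMI in 708, 747 and 731 of the other 1521 columnar cells.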
